A study of Mus musculus with 33 samples.

Results

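The 51 genes described here encode splicing factors and related RNA-binding molecules. Their names came from a list that was chosen with earlier results of these data known. They are among the 38355 genes counted in CA1, the hippocampal subregion that was microdissected from each mouse. They comprise 13 SR proteins, 17 hnRNPs, 9 paraspeckle and nuclear speckle components, 5 stress granule and FET-type proteins, 3 LUC7-like proteins, the kinases CLK1 and CLK4 and the DEAD-box helicases DDX5 and DDX17. All 51 were found in both experiments of the series and all 51 passed the filters on low values. In the first experiment, mice of 8 to 10 months belonged to 3 groups, and daily injections were given for 10 days in each. APP/PS1-21 mice (termed APP mice) received JQ1 at 50 mg per kg i.p. (6 libraries), APP mice received a vehicle with 10% DMSO (6 libraries), and mice whose titles say WT received the same vehicle (4 libraries, with a further WT sample of the labels not analysed here). In the second experiment, C57B/6JRj WT mice of 3 months were injected for 13 days with JQ1 at 50 mg per kg (8 libraries) or with that vehicle (8 libraries).

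The APP line carries transgenes driven by the neuronal Thy1 promoter, mutant APP among them, and the strain label of the older WT mice names the same line, so that their genotype rests on the sample titles. The study's methods name females for the behavioural work with the older mice and males for the purchased young mice, and the mice for sequencing were killed after a water maze probe test. All groups therefore share injections and training. JQ1 is a small molecule that competes with acetylated lysines for the bromodomains of the BET proteins, which read histone acetylation and promote transcription.

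SR proteins bind exonic sequences and recruit the splicing machinery, and their activity is set by phosphorylation through kinases such as CLK1 and CLK4. The hnRNPs coat nascent transcripts and often oppose the SR proteins at the same exons. Paraspeckles are nuclear bodies built on the long noncoding RNA Neat1 by the proteins SFPQ, NONO and PSPC1, whereas Malat1 is a nuclear RNA of the speckles, where SON and SRRM2 form the scaffold. In neurons, several members of these families, such as TARDBP and TIA1, also take part in RNA transport and stress granules.

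The older libraries held between 14605459 and 25339482 counts, and 3 counts corresponded to between 0.118 and 0.205 CPM (counts scaled to a common library total, with TMM factors that correct for library composition). The lowest value of any member was 6.28 CPM (Hnrnpf), well above that floor, which covers counting error only. The young libraries were deposited as FPKM (fragments scaled to transcript length and sequencing depth), so that their depth is unknown. The CA1 marker genes Wfs1 and Fibcd1 were present in every library of the older mice, from 160 to 344 CPM and from 94.9 to 240 CPM. The library labelled APP JQ1 replicate 4 went against its label. Thy1 was at 820 CPM there, while the other 11 APP libraries were between 1618 and 2342 CPM and the WT libraries between 841 and 1070 CPM. Gfap, an astrocyte gene, was at 322 CPM there, against 1262 to 5166 CPM in the other APP libraries and 249 to 321 CPM in WT. Cst7, a gene of activated microglia that was picked after its values were seen, had 0 counts there and at least 13.7 CPM in each of the other APP libraries. WT replicate 4 held 3065 CPM of Ttr, a choroid plexus gene that did not exceed 115 CPM in any other library. Results were therefore also computed without these libraries. Values from these fits are given where a call changed, for the members that were called and for part of the other results. In bulk tissue, fewer cells of a type and less RNA per cell cannot be told apart.

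The members Sfpq, Srsf10 and Tia1 carried the differences described below, and their promoters are shown for that reason. Each is given as 300 bases from RefSeq (GRCm38.p6, the build of the count files). These bases run from 250 bases before the start annotated in RefSeq to 50 bases after it. The gene coordinates further below are from GENCODE. For Srsf10 they begin before the window, so that its whole window lies inside the gene as given there. Capitals mark matches, on either strand, to GGGCGG (the GC box) or CCAAT (the CCAAT box).
Sfpq, chr4:127021051-127021350, plus strand: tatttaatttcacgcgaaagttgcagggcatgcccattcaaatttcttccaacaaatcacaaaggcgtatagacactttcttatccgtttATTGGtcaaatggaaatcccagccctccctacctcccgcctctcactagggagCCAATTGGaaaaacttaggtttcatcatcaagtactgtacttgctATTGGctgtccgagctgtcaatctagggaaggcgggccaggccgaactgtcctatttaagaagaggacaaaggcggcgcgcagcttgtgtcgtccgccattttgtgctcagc
Srsf10, chr4:135855821-135856120, plus strand: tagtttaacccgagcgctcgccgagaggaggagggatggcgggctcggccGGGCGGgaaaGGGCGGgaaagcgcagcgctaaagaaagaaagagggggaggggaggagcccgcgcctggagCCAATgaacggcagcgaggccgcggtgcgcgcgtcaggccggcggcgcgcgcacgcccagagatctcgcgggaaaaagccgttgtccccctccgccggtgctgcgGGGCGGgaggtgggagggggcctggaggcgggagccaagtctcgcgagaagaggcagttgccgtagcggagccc
Tia1, chr6:86403969-86404268, plus strand: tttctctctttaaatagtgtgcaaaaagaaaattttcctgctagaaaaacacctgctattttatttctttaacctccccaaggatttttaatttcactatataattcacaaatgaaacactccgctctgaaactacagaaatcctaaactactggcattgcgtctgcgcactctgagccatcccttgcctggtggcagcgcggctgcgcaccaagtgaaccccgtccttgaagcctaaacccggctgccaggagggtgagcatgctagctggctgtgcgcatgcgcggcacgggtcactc

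The 3 promoters differed from each other in these letters. Sfpq held 4 matches to CCAAT, of which a neighbouring pair overlapped, and none to GGGCGG. Srsf10 held 3 matches to GGGCGG and 1 to CCAAT, and its window was richer in G and C (71.3%) than the other two. Tia1 held no match. None of the 3 windows held CCGGAAG (an ETS site), CACGTG (an E-box) or TGACGTCA (a CRE). Among all 32851 promoters of the same length, 35.7% held GGGCGG, 37.4% CCAAT, 8.86% CCGGAAG, 7.15% CACGTG and 1.79% TGACGTCA on either strand. Of 46 members whose promoters were searched, 33 held GGGCGG, 25 CCAAT, 8 CCGGAAG, 6 CACGTG and 2 TGACGTCA.

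To learn whether JQ1 changed these genes in APP mice, JQ1-treated APP mice were compared with vehicle-treated APP mice. Sfpq, Tia1 and Srsf10 rose, and no member fell. Only the call of Sfpq held with a correction for GC content, described below, or with no filter on low counts. The test was edgeR's quasi-likelihood test over 16962 genes with Benjamini-Hochberg adjustment, and a gene was called at an adjusted p under 0.05. The 3 members that rose are 5.88% of the 51, beside 0.619% of all genes called higher and 0.466% called lower (1.08% in either direction). The members were chosen with earlier results of these data known, and the study also lists these 3 genes as changed by JQ1 in APP mice. The shares in this paragraph are therefore a description and no test of the set. The same 3 members were also those whose groups did not overlap, beside 0.878% of all genes with all JQ1 libraries above all vehicle libraries and 1.15% with all of them below (2.03% in either direction). The median log2 fold change was 0.08 over the members and 0.00 over all genes tested, and 35 of 51 members (68.6%) were above 0, beside 49.8% of all genes. The median was 0.08, with 37 of 51 above 0, without the library labelled APP JQ1 replicate 4.

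Sfpq (ENSMUSG00000028820, chr4:127021324-127037013, plus strand) encodes the splicing factor SFPQ, a core protein of paraspeckles that also acts in transcription and DNA repair. Its level in the 6 APP JQ1 libraries ran from 177 CPM over a median of 181.5 CPM to 209.6 CPM. In the 6 APP vehicle libraries it ran from 114 over 124 to 141 CPM, and the 4 WT libraries stood at 117, 136, 126 and 117 CPM. Every JQ1 library therefore lay above every library of the other groups, and the vehicle and WT groups overlapped. The means were 188 ± 14.0 CPM (SD, n = 6) with JQ1, 125 ± 10.7 CPM (SD, n = 6) with vehicle and 124 ± 9.13 CPM (SD, n = 4) in WT. Sfpq was 1.501-fold higher with JQ1 than with vehicle in APP mice (log2 fold change 0.59 ± 0.07, SE; edgeR adjusted p = 0.000401). An exact two-sided permutation test of the log2 CPM gave p = 0.00216, the smallest that 6 against 6 samples allow. The library labelled APP JQ1 replicate 4 held 184 CPM, and without it the log2 fold change was 0.60 (edgeR adjusted p = 0.00114). The gene Gm12940 shares 216 exonic bases with Sfpq on the same strand.

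Tia1 (ENSMUSG00000071337, chr6:86404219-86433405, plus strand) encodes a protein that binds U-rich sequences beside 5′ splice sites and gathers in stress granules. It ran from 190.5 over 203 to 221 CPM with JQ1 and from 152 over 165 to 178 CPM with vehicle, and stood at 193, 205, 197 and 190.2 CPM in WT. The vehicle-treated APP libraries were the low group, below every JQ1 library and every WT library, while JQ1 and WT libraries overlapped. Tia1 was 1.24-fold higher with JQ1 than with vehicle in APP mice (log2 fold change 0.31 ± 0.06, SE; edgeR adjusted p = 0.0185), with an exact permutation p of 0.00216. Without the library labelled APP JQ1 replicate 4 (190.5 CPM) the log2 fold change was 0.33 (edgeR adjusted p = 0.0230), and without APP JQ1 replicate 2 it was 0.29 with the call lost (edgeR adjusted p = 0.0581).

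Srsf10 (ENSMUSG00000028676, chr4:135855747-135869908, plus strand) encodes an SR protein that acts as a repressor of splicing when it is dephosphorylated. It ran from 40.7 over 47.2 to 53.8 CPM with JQ1 and from 34.6 over 36.2 to 38.4 CPM with vehicle, and stood at 42.4, 40.6, 39.04 and 39.1 CPM in WT. Vehicle-treated APP libraries were again the low group, below all JQ1 and all WT libraries, and the lowest JQ1 libraries lay within the WT range. For Tia1 and Srsf10, the comparisons of vehicle-treated APP mice with JQ1 and with WT share the vehicle libraries. They are therefore not independent of each other. These vehicle libraries also differed from the JQ1 libraries in their GC trend, described below. Srsf10 was 1.28-fold higher with JQ1 than with vehicle in APP mice (log2 fold change 0.35 ± 0.07, SE; edgeR adjusted p = 0.0250), with an exact permutation p of 0.00216. Without the library labelled APP JQ1 replicate 4 (48.7 CPM) the log2 fold change was 0.34 and the call was lost (edgeR adjusted p = 0.0700). The call was also lost, at edgeR adjusted p from 0.0511 to 0.0788 and a log2 fold change of at least 0.31, when APP JQ1 replicates 2, 3 or 6 or APP vehicle replicates 3, 4, 5 or 6 were left out in turn.

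**Figure D1:**
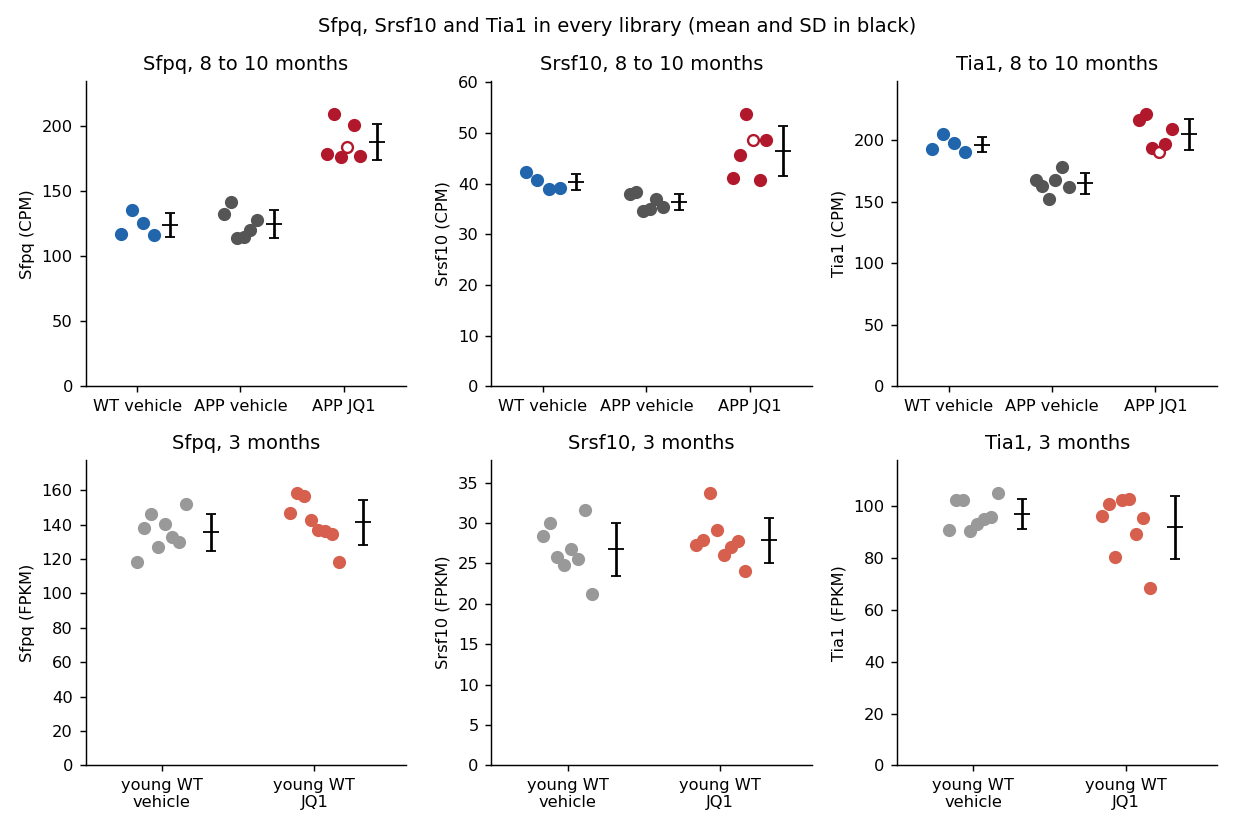
Sfpq, Srsf10 and Tia1 in every library, in CPM for the older mice (upper panels) and FPKM for the young mice (lower panels), on linear axes from 0. Points are libraries, black bars give the mean and SD, and the open point is the library labelled APP JQ1 replicate 4. The APP JQ1 points lie above all APP vehicle points in the 3 upper panels, from 177 CPM upwards against at most 141 CPM for Sfpq, and the groups overlap in the lower panels.

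The change of expression with JQ1 in APP mice moved with the GC content of the transcripts over all genes. The members are rich in A and T. The median GC content of their longest transcripts was 43.3% (from 37.1% to 54.2%), beside 49.8% over all genes tested, and 43 of 51 were below the latter value. Over all genes, the median log2 fold change between JQ1 and vehicle fell from 0.23 in the 988 genes with at most 40% GC to -0.22 in the 2954 genes above 56% GC. The bin from 40 to 42% held 15 members, Tia1 (41.2%) and Srsf10 (41.4%) among them, with a median log2 fold change of 0.17 beside 0.19 over all 1001 genes of the bin. Sfpq (49.9%) lay in the bin from 48 to 50%, where the median over 1867 genes was 0.02. The libraries differed in the same property. For each library, the median deviation (log2 CPM from the gene's mean) of genes above 56% GC was subtracted from that of genes under 42%. This difference ran from -0.03 to 0.44 in the APP JQ1 libraries and from -0.36 to -0.13 in the APP vehicle libraries. In WT it was 0.44 in replicate 1, far above the other WT libraries at -0.04, -0.10 and -0.14. The APP JQ1 and APP vehicle libraries did not overlap in this measure, so that treatment and the GC trend cannot be told apart by library.

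With a per-library correction for GC content (an offset from a spline of transcript GC content in the same edgeR model), Sfpq kept its log2 fold change at 0.57 ± 0.07 (SE; edgeR adjusted p = 0.000793). Tia1 moved to 0.11 (edgeR adjusted p = 0.738) and Srsf10 to 0.14 (edgeR adjusted p = 0.525), and neither was called. The median of the members moved from 0.08 to -0.05, with 14 of 51 above 0, beside -0.01 over all genes. The calls over all genes went from 105 higher and 79 lower to 21 higher and 4 lower. With the same correction and without the library labelled APP JQ1 replicate 4, Sfpq stood at 0.57 (edgeR adjusted p = 0.00221).

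**Figure D2:**
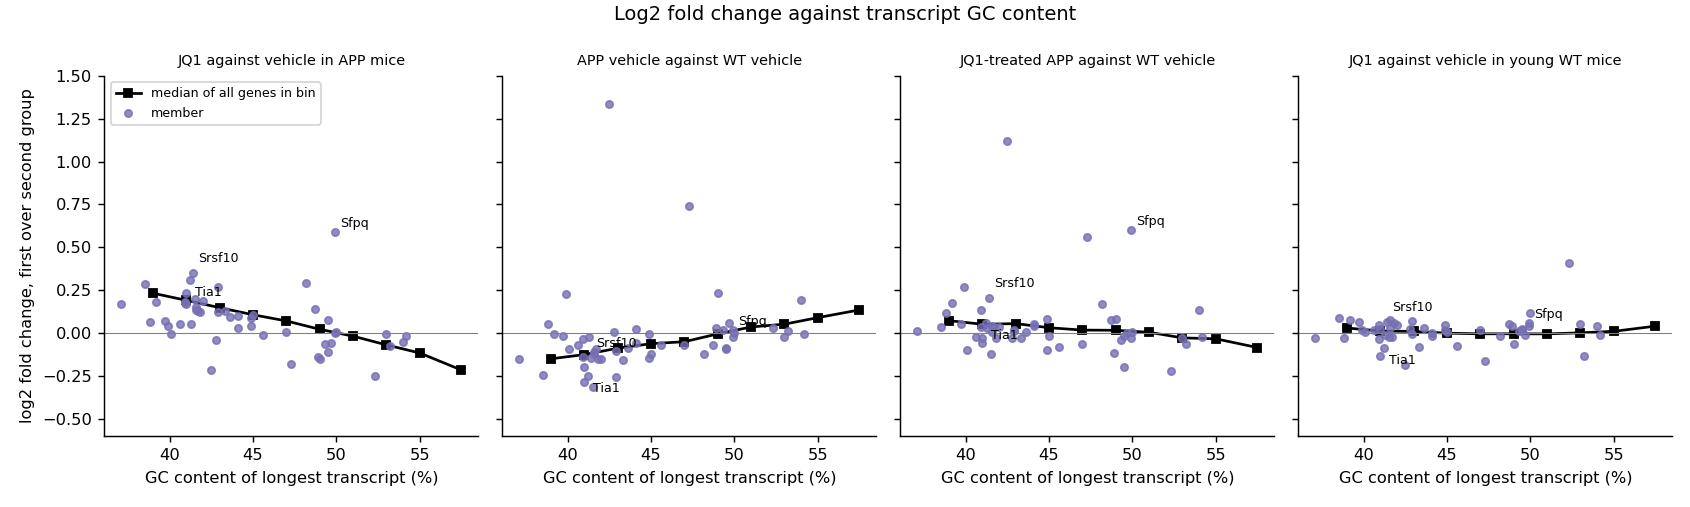
Log2 fold change against the GC content of the longest transcript in the 4 comparisons, with 1 point per member and, in black, the median of all genes in bins of GC content (the outermost bins, up to 40% and above 56%, are drawn at the edge). The black line falls from 0.23 to -0.22 for JQ1 in APP mice, rises from -0.15 to 0.13 for APP vehicle against WT vehicle and stays between -0.01 and 0.04 in young mice, and Sfpq lies far from it in both comparisons of JQ1-treated APP mice.

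Among the other paraspeckle components, Nono and Pspc1 were not called in JQ1-treated APP mice. Nono, the dimer partner of SFPQ, ran from 70.2 over 78.9 to 83.0 CPM with JQ1 and from 63.6 over 71.2 to 74.9 CPM with vehicle, with WT at 73.8, 77.6, 71.8 and 71.4 CPM. The groups overlapped, and the log2 fold change of 0.14 ± 0.06 (SE) missed the threshold (edgeR adjusted p = 0.267). Pspc1, the third protein of that family, ran from 43.7 over 50.8 to 65.5 CPM with JQ1 and from 44.8 over 46.9 to 51.8 CPM with vehicle, with WT at 74.4, 56.9, 54.1 and 50.8 CPM. Its log2 fold change was 0.20 ± 0.11 (SE; edgeR adjusted p = 0.348), and -0.01 with the GC correction. Nono stood at 0.15 and Pspc1 at 0.14 without the library labelled APP JQ1 replicate 4, neither called. Of the speckle scaffold genes, Son stood at 0.29 ± 0.09 (edgeR adjusted p = 0.123) and Srrm2 at -0.25 ± 0.13 (edgeR adjusted p = 0.311). Son, at 48.2% GC, stood at 0.24 with the GC correction, and it was called by DESeq2 (0.30, adjusted p = 0.0455). In edgeR, Son stood at 0.32 and Srrm2 at -0.20 without the library labelled APP JQ1 replicate 4, neither called.

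Of the noncoding RNAs, Malat1 had the largest spread of all members between the libraries of each older group, and Neat1 varied widely with JQ1. Malat1 (chr19:5795690-5802672, minus strand) ran from 767 over 2412 to 4528 CPM with JQ1 and from 504 over 1726 to 6205 CPM with vehicle, and stood at 417, 1309, 1241 and 1157 CPM in WT. The SD of its log2 level was 1.04 with JQ1 and 1.297 with vehicle, beside medians of 0.12 and 0.10 over the members, and that of Neat1 was 0.88 and 0.20. Neat1 (chr19:5824708-5845478, minus strand) ran from 143 over 387 to 751 CPM with JQ1, from 359 over 451 to 537 CPM with vehicle, and stood at 195, 272, 344 and 251 CPM in WT. The JQ1 and vehicle groups overlapped for both RNAs, with log2 fold changes of -0.22 ± 0.59 for Malat1 (edgeR adjusted p = 0.887) and -0.18 ± 0.31 for Neat1 (edgeR adjusted p = 0.811). Without APP vehicle replicate 2 the log2 fold change of Malat1 was 0.25. Without the library labelled APP JQ1 replicate 4, which held the lowest JQ1 value of both RNAs, it was -0.04 for Malat1 and -0.0035 for Neat1.

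The share of reads in no annotated exon, among those reads and the reads assigned to genes, ran from 17.2% over 21.8% to 27.3% in APP JQ1 libraries and from 15.8% over 19.0% to 24.9% in APP vehicle libraries. The WT libraries stood at 16.6%, 19.2%, 18.8% and 17.8%. The 3 groups overlapped. Exact permutation tests of the group means gave differences of 1.89 percentage points for JQ1 against vehicle in APP mice (p = 0.383), 1.72 for APP vehicle against WT (p = 0.390) and 3.62 for JQ1-treated APP against WT (p = 0.114), with Benjamini-Hochberg values of 0.390, 0.390 and 0.343 over the 3 tests. Without the library labelled APP JQ1 replicate 4 the JQ1-treated APP mice differed from vehicle by 2.77 points and from WT by 4.49 points, with Benjamini-Hochberg values of 0.338 and 0.191. The library with the highest Malat1 level, APP vehicle replicate 2 (6205 CPM), had 24.9% of reads outside exons, and the APP library with the lowest, APP vehicle replicate 3 (504 CPM), had 15.8%. Within the JQ1 group, replicate 2 (27.3%) held 4528 CPM of Malat1, while replicates 3 and 4 (17.2% and 17.4%) held 777 and 767 CPM. Sfpq was at 209.6, 177 and 184 CPM in those 3 libraries, each above all vehicle and WT libraries. Replicate 4 among them is the library that went against its label. With the share of reads outside exons as a covariate, the 3 calls remained and Srrm2 was also called lower (log2 fold change -0.38), while the calls over all genes went from 105 higher and 79 lower to 201 higher and 320 lower. With that covariate and the GC correction only Sfpq was called (0.53, edgeR adjusted p = 0.000621).

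**Figure D3:**
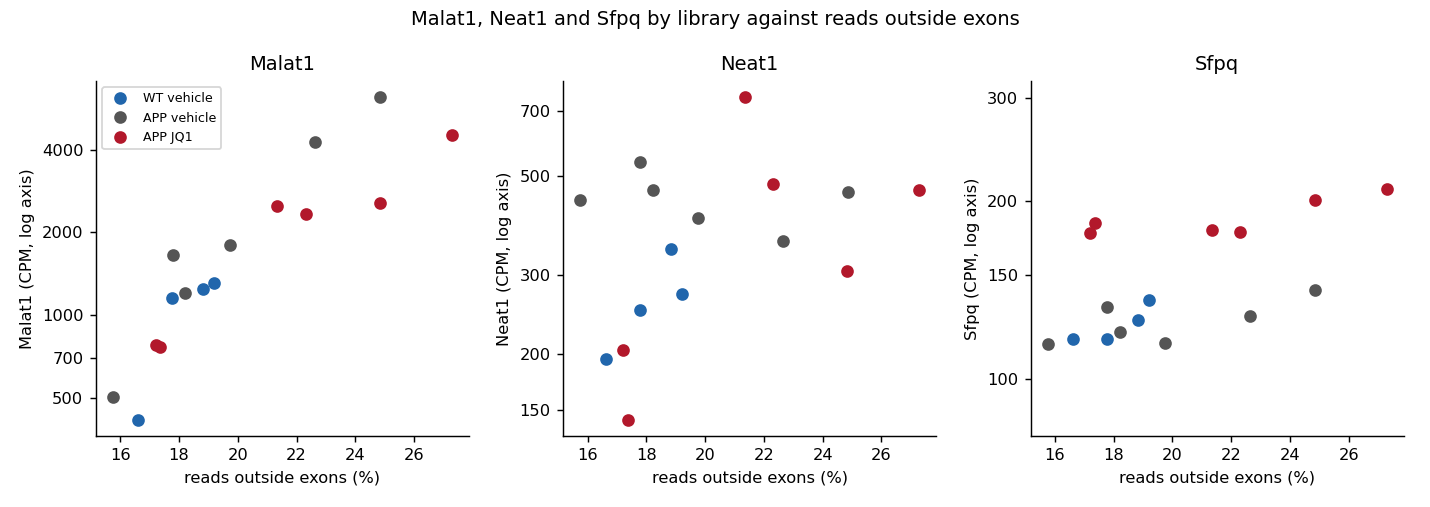
Level of Malat1, Neat1 and Sfpq (CPM, log axes) in each library of the older mice against the share of reads outside exons in percent, coloured by group. Malat1 runs from 417 to 6205 CPM between libraries with 16.6% and 24.9% of reads outside exons, and the red JQ1 points of Sfpq lie above all others from 17.2% to 27.3%.

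In the other families the differences with JQ1 were small. Of the 13 SR proteins, Srsf10 was called, 9 were above 0, and the median log2 fold change was 0.05, with values from -0.14 for Srsf9 to 0.35 for Srsf10. Srsf3 stood at 0.17 and Srsf7 at 0.15, and Srsf2, Srsf4 and Srsf5 lay within 0.01 of 0. With the GC correction 11 of the 13 were below 0, among them Srsf5 (-0.23), Srsf6 (-0.21) and the SR-like Tra2b (-0.18), and none was called. Of the 17 hnRNPs none was called by edgeR, 12 were above 0, and the median was 0.09. Hnrnpc (0.27), Hnrnpr (0.23) and Hnrnpu (0.18), which encodes a scaffold protein of nuclear RNA, stood at the upper end and Hnrnpf (-0.15) at the lower. DESeq2 called Hnrnpu (0.19, adjusted p = 0.0391). With the GC correction 12 of the 17 hnRNPs were below 0.

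Of the stress granule and FET-type proteins, Tia1 was called, and its paralog Tial1 stood at 0.05 (edgeR adjusted p = 0.745). Tardbp, which encodes TDP-43, stood at 0.12, Ewsr1 at -0.07 and Taf15 at -0.11. The LUC7-like genes, whose proteins act with the U1 snRNP at 5′ splice sites, stood at 0.19 for Luc7l2, 0.13 for Luc7l3 and 0.01 for Luc7l. The SR protein kinase genes Clk1 and Clk4 stood at 0.18 and 0.07. The helicase genes Ddx5 and Ddx17 stood at 0.13 and -0.06. No gene of these families other than Tia1 passed the threshold in edgeR. Over all 51 members, 12 had an unadjusted p under 0.05 (23.5%, beside 17.6% of all genes).

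**Figure D4:**
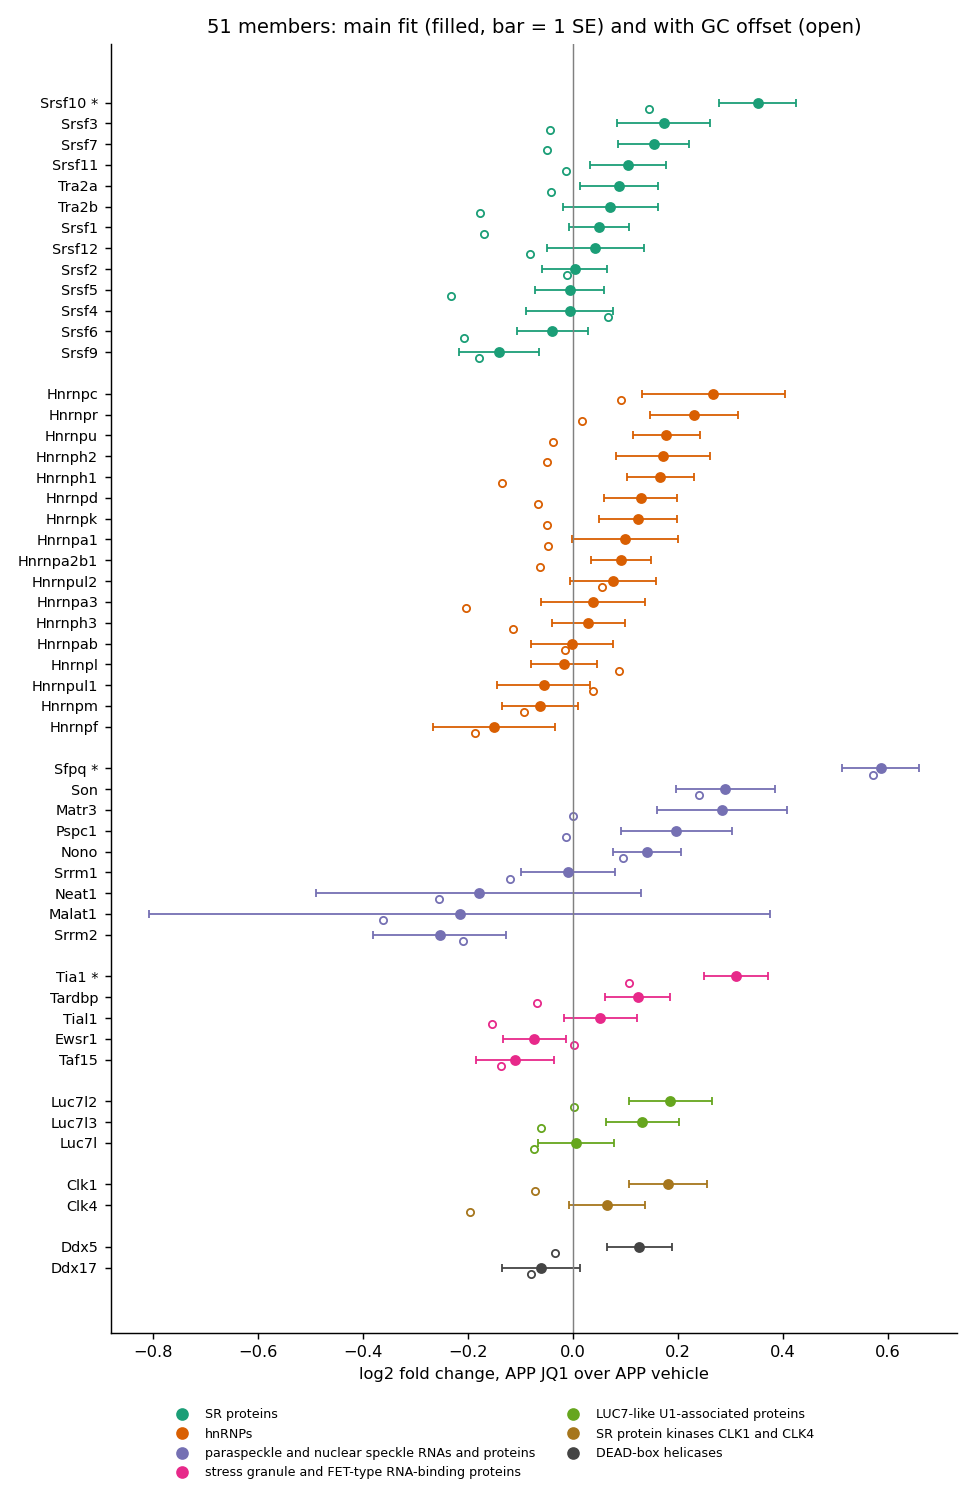
Log2 fold change of the 51 members in JQ1-treated over vehicle-treated APP mice, ordered within families, as filled points with bars of 1 SE, and with the GC correction as open points. Stars mark the 3 members with an edgeR adjusted p under 0.05. Most open points lie to the left of the filled ones, for Sfpq only slightly (0.57 beside 0.59).

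The members covered a wide range of levels. Per kilobase of exon, Malat1 was the highest member in each older group (345 CPM per kb with JQ1, 247 with vehicle and 172 in WT, as group medians), followed by Ddx5, Hnrnpa2b1 and Srsf5. In APP vehicle libraries these 3 stood at 142, 95.2 and 81.4 CPM per kb, and Hnrnpr was the lowest member at 2.35 CPM per kb. The length merges all annotated exons of a gene, 22199 bases for Hnrnpr, so that this order depends on the annotation. By FPKM in the young vehicle group, the locus of Hnrnpr, which also covers 9130020K20Rik, had rank 36 among the members (52.9 FPKM). Sfpq stood at 38.3 CPM per kb with JQ1, 26.1 with vehicle and 25.6 in WT. In the young mice the locus of Ddx5, which also covers Gm25994 and Mir3064, was highest, at a median of 581 FPKM with JQ1 and 646 FPKM with vehicle, and its highest library was 2.17 and 2.49 times its lowest.

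Vehicle-treated APP mice were next compared with vehicle-treated WT mice, which differ in the transgenes. No member was called in edgeR (0 of 51, beside 2.49% of all genes called higher and 0.0825% called lower, 2.57% in all), 6 had an unadjusted p under 0.05 (11.8%, beside 14.4% of all genes), and DESeq2 called 1. The 436 genes called in all became 154 without WT replicate 1 and 601 without the library labelled APP JQ1 replicate 4. The median log2 fold change of the members was -0.07, beside 0.01 over all genes. Of the 51 members 15 were above 0, beside 51.6% of all genes. With the GC correction the medians were -0.08 and -0.07, so that the members lay close to all genes. Then 12 of 51 members and 6205 of 16962 genes were above 0. Without that correction and without the library labelled APP JQ1 replicate 4, the members' median was -0.08, with 12 of 51 above 0. The vehicle-treated APP libraries are the same as in the first comparison. Tia1 had the smallest p, at a log2 fold change of -0.25 ± 0.07 (SE; edgeR adjusted p = 0.0594, exact permutation p = 0.00952), and its vehicle-treated APP libraries lay below all 4 WT libraries. It was called lower by DESeq2 (adjusted p = 0.00107) and in edgeR without the library labelled APP JQ1 replicate 4 (adjusted p = 0.0398) or without APP vehicle replicate 5 (adjusted p = 0.0464), but not with the GC correction (-0.21, edgeR adjusted p = 0.219). Without WT replicate 4 and the library labelled APP JQ1 replicate 4, it stood at -0.26 (edgeR adjusted p = 0.0960).

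Hnrnpr, which encodes an hnRNP that is also found in axons, ran from 46.5 over 52.1 to 64.7 CPM in vehicle-treated APP mice and stood at 74.0, 62.6, 62.1 and 63.2 CPM in WT. The APP vehicle replicate 4, at 64.7 CPM, thus lay within the WT range. The log2 fold change of Hnrnpr was -0.29 ± 0.09 (SE; edgeR adjusted p = 0.129), and -0.36 with a call (edgeR adjusted p = 0.0384) without APP vehicle replicate 4. Leaving out libraries gave values from -0.36 to -0.24, and the other alternatives gave -0.31 to -0.19. Pspc1 stood at -0.32 ± 0.12 (SE; edgeR adjusted p = 0.201), with its highest WT value in replicate 1. Groups did not overlap for 5 members (9.80%, beside 4.94% of all genes higher, 2.05% lower and 6.99% in all): Tia1, Srsf10, Hnrnpu and Hnrnpa2b1 were lower in vehicle-treated APP mice and Neat1 was higher. Neat1 stood at 0.74 ± 0.35 (SE; edgeR adjusted p = 0.353), and it was called in a fit of these 2 groups alone (0.74, edgeR adjusted p = 0.00962). Without WT replicate 4, which held the highest WT value of Neat1, Neat1 stood at 0.88 (edgeR adjusted p = 0.328), Hnrnpr at -0.33 (0.143) and Pspc1 at -0.37 (0.194). The astrocyte markers summed to between 2123 and 6290 CPM in these APP libraries and to between 1121 and 1162 CPM in WT, and the microglial markers to between 436 and 816 CPM and to between 201 and 246 CPM. The part of these cells in the Neat1 and Tia1 values was not tested.

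When JQ1-treated APP mice were compared with vehicle-treated WT mice, Sfpq was the only member called in edgeR (1 of 51, beside 1.93% of all genes called higher and 0.130% called lower, 2.06% in all). It was 1.52-fold higher (log2 fold change 0.60 ± 0.08, SE; edgeR adjusted p = 0.00211; exact permutation p = 0.00952), and it was the only member whose groups did not overlap, beside 2.55% of all genes higher, 1.17% lower and 3.71% in all. The 349 genes called in all became 153, 25, 30 and 11 without WT replicates 1, 3, 4 and 5, and 651 without the library labelled APP JQ1 replicate 4, while Sfpq was called in each. This comparison shares its JQ1 libraries with the first, so that it is no independent support for it. Sfpq stood at 0.60 (edgeR adjusted p = 0.000386) without the library labelled APP JQ1 replicate 4, at 0.60 (edgeR adjusted p = 0.0161) without WT replicate 4, and at 0.51 (edgeR adjusted p = 0.00780) with the GC correction. With that correction the calls over all genes went from 327 higher and 22 lower to 271 higher and 88 lower. Srsf10 stood at 0.20 (edgeR adjusted p = 0.247) and Tia1 overlapped WT. Of the 51 members 29 were above 0, beside 50.1% of all genes. The median of the members was 0.01, and -0.12 with the GC correction, beside 0.00 and -0.08 over all genes. Without WT replicate 4 and the library labelled APP JQ1 replicate 4, 23 of 51 members were above 0. Their median was then -0.01, beside -0.01 over all genes.

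In the young WT mice, no member was called (0 of 51 in limma on log2(FPKM + 0.1), beside 0.00543% of the 18420 loci in either direction), and 1 had an unadjusted p under 0.05 (1.96%, beside 4.65% of all loci). The groups overlapped for all 51 members, beside 0.0109% of loci without overlap that were higher and 0.0163% that were lower (0.0271% in all), and 31 were above 0, beside 51.1% of all loci. The members' median log2 fold change was 0.02, beside 0.00 over all loci. Sfpq ran from 118 over 139.6 to 158 FPKM with JQ1 and from 118 over 135 to 152 FPKM with vehicle, and its deposited locus also covers Gm12940 and Gm12941. The groups overlapped almost entirely. Srsf2, which had the smallest p, ran from 101 over 113 to 128 FPKM with JQ1 and from 95.5 over 102 to 117 FPKM with vehicle, at a log2 fold change of 0.12 ± 0.05 (SE; limma adjusted p = 0.981). Srrm2, whose locus also covers AC122821.2 and Mir5125, ran from 66.2 over 88.5 to 260.4 FPKM with JQ1 and from 62.1 over 77.8 to 87.3 FPKM with vehicle, at 0.41 ± 0.23 (SE; limma adjusted p = 0.981). Hnrnpr, whose locus also covers 9130020K20Rik, ran from 40.1 over 50.4 to 59.0 FPKM with JQ1 and from 47.2 over 52.9 to 58.5 FPKM with vehicle, at -0.13 ± 0.08 (SE; limma adjusted p = 0.981). These groups overlapped too. All 13 SR proteins were above 0, by at most 0.12, and 8 of 17 hnRNPs were. Srsf10 and Tia1 also overlapped between JQ1 and vehicle. The change with JQ1 was not tested for a difference between the young and the APP mice, whose values are in different units and whose ages, sexes and days of injection differ.

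**Figure D5:**
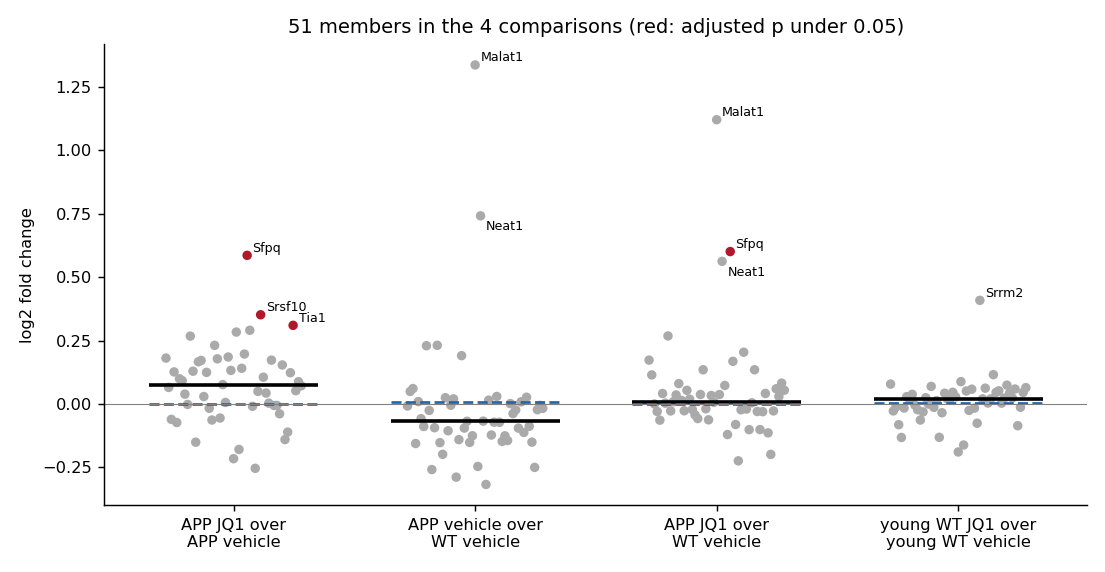
Log2 fold change of the 51 members in each of the 4 comparisons, 1 point per member, with the median of the members as a black line and that of all genes tested as a dashed blue line. Red points mark members with an adjusted p under 0.05 (edgeR, or limma in the young mice): 3 for JQ1 in APP mice, 1 for JQ1-treated APP against WT mice and none in the other comparisons.

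Beyond these members, 155 genes of the spliceosome and of coupled steps of RNA processing were examined in 12 lists, of which 153 were tested in the older mice. In JQ1-treated against vehicle-treated APP mice 3 rose and 1 fell (2.61% of the 153, beside 1.08% of all genes). The median log2 fold change over the 153 was 0.04. These lists too were chosen with earlier results of these data known, so that the share is no test of them. Smg1, which encodes a kinase of nonsense-mediated decay, ran from 186 over 206 to 253 CPM with JQ1 and from 102 over 129 to 166 CPM with vehicle, without overlap, beside 2.03% of all genes (0.68 ± 0.11, SE; edgeR adjusted p = 0.00542). Thoc2, which encodes a subunit of the THO export complex, stood at 0.51 ± 0.09 (SE; edgeR adjusted p = 0.00681), and the SR protein kinase gene Prpf4b at 0.30 ± 0.07 (SE; edgeR adjusted p = 0.0415). Snrnp70, which encodes a protein of the U1 snRNP, fell by 0.39 ± 0.09 (SE; edgeR adjusted p = 0.0375). The transcript GC content was 57.3% for Snrnp70, 44.9% for Smg1, 37.5% for Thoc2 and 40.8% for Prpf4b. Without the library labelled APP JQ1 replicate 4, Smg1 (0.70, edgeR adjusted p = 0.0131) and Thoc2 (0.50, 0.0190) were called, while Prpf4b (0.30, 0.0984) and Snrnp70 (-0.34, 0.0978) were not, and Prpf4b was not called without WT replicate 4 either (0.0659). None of the 4 was called with the GC correction, under which Smg1 came closest (0.56, edgeR adjusted p = 0.0581). Smg1 was also higher in JQ1-treated APP than in WT mice (0.62 ± 0.12, SE; edgeR adjusted p = 0.0159), a call lost without WT replicate 4 (0.61, edgeR adjusted p = 0.0598). No gene of these lists was called in the comparison of vehicle-treated APP with WT mice by edgeR, or in the young mice by limma.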

How the data were processed

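RNA from microdissected CA1 was sequenced on a HiSeq2000. For the older mice, the authors aligned reads to mm10 with STAR and deposited raw counts per Ensembl gene from HTSeq. For the young mice they deposited FPKM per locus from Cufflinks. Versions, annotation and strand setting are not given in the sources used here, so that reads of overlapping and antisense genes cannot be told apart, and exons of 21 members overlap another counted gene. The young loci of 9 members join other genes. Gene names, lengths and GC content came from GENCODE M21 (GRCm38), which named 36602 of 38355 IDs. Where 2 loci bear a symbol (Ddx17), the higher was used. Counts were tested with edgeR 4.0.16 (TMM, filterByExpr, 1 fit of 3 groups), and FPKM with limma 3.58.1 (trend, robust) on log2(FPKM + 0.1) where 8 of 16 libraries reached an FPKM of 0.5, a scale that understates changes of low genes. Exact permutation tests used scipy 1.17.1. The tests were also run on simulated data. Without an added GC bias, the share of false calls lay above the threshold for edgeR, with or without the block, for limma and for DESeq2, and was highest for DESeq2. An added GC bias raised that share far above the threshold in the edgeR fit, and the GC offset brought it back below. Changed genes had log2 fold changes of at least 1 in these data, and smaller ones were not tested. Count libraries of a group differed by more than sampling noise, and no young libraries were identical. The labels only number the libraries of a group, so that p-values measure the spread between these libraries. Alternatives were DESeq2 1.42.0, other size factors, filters and pseudocounts, GC, length and covariate corrections, a replicate block and leaving out each library. Some corrections with 2 choices together, and the fits without both libraries that stood apart, were chosen after the data were seen. The members and all lists were chosen with earlier results of these data known. Values by library are given for called members, for the 3 members with the smallest p where none was called, and for the paraspeckle genes. Some genes are not reported here.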

Additional observations from a re-analysis of the deposited data

Results flagged for a closer look

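In 53 groups of 4 to 8 libraries (the members given by library and the share of reads outside exons), 4 extreme values stood further from their nearest neighbour than Dixon's limit at 95% allows, where chance gives about 1 in 20 groups. Malat1 in WT replicate 1 was at 417 CPM, below 1157 to 1309 CPM in the other 3 WT libraries. Hnrnpr in the same library was at 74.0 CPM, above 62.1 to 63.2 CPM. Nono in young WT JQ1 replicate 1 was at 51.99 FPKM, below 60.0 to 66.6 FPKM in the other 7 libraries. The young locus of Srrm2, which also covers AC122821.2 and Mir5125, in young WT JQ1 replicate 3 was at 260.4 FPKM, above 66.2 to 158 FPKM in the other 7 libraries.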

How the results depend on the processing

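For JQ1 against vehicle in APP mice, the number of members called was 3 in the fit reported, 5 with DESeq2 (with Son and Hnrnpu added) and 1, Sfpq, with the GC offset, the GC and length offset, no filter on low counts, the replicate block, the block with the GC offset, the covariate with the GC offset, and the GC offset without the library labelled APP JQ1 replicate 4. Leaving out libraries gave 1 to 3. The genes called among all tested ranged from 14 (GC offset without the library labelled APP JQ1 replicate 4) to 749 (DESeq2) around 184, with 25 under the GC offset and 15 with the block added to it, and leaving out 1 or 2 libraries gave 57 to 446. For APP vehicle against WT vehicle, 0 became 1 with DESeq2, RLE factors and the covariate (Tia1) and in a fit of the 2 groups alone (Neat1), and leaving out libraries gave 0 to 1. For JQ1-treated APP against WT, 1 became 2 with the GC and length offset (Taf15 added), with the covariate and with the covariate and GC offset (Srrm2 added), and 0 with the block and GC offset, under which Sfpq stood at 0.47 (adjusted p = 0.0634). Leaving out libraries gave 1 there. In the young mice the number was 0 in every setting.

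For Sfpq the JQ1 change in APP mice stayed between 0.53 and 0.63 on the log2 scale over all 30 alternatives and was called in each. Pspc1 turned to -0.0134 under the GC offset, to -0.0178 with the block added to it and to -0.0591 with it and without the library labelled APP JQ1 replicate 4. Leaving out libraries moved Malat1 between -0.545 and 0.255, the latter without APP vehicle replicate 2. Tia1 and Srsf10 lost their calls under the offsets, the block (adjusted p = 0.0656 and 0.0792) and no filter (0.0531 and 0.0524). Replicate numbers are shared between groups. Same-numbered libraries had deviations with correlations from -0.47 to 0.34 in the older mice and from -0.07 to 0.10 in the young. Between APP JQ1 and APP vehicle 3 of 6 same-numbered pairs were above 0.1, with a mean of 0.12. Among the APP vehicle libraries, those 3 JQ1 libraries were closest to their own number, a hint from the data and not from the design. Over all older groups, 4 of 14 same-numbered and 26 of 70 differently numbered pairs were above 0.1, with means of -0.02 and 0.01. The hint therefore rests on this pair of groups alone. The block reduced the genes called from 184 to 87, from 436 to 35, from 349 to 21 and from 1 to 0 in the 4 comparisons. The causes were not tested.

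Values by library rest on 4 to 8 libraries a group, and FPKM give no depth. One library labelled APP JQ1 lacks the transgene signal, and the WT group has 1 library with choroid plexus RNA. The treatment and the GC trend of the libraries cannot be told apart. Gene counts do not show splicing itself.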
